A study of Mus musculus with 18 samples.

Results

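Natural killer (NK) cells of wild-type (WT) mice were compared at both ends of their maturation in the spleen: CD27-CD11b+ cells, the more mature subset (called CD11b here), against CD27+CD11b- cells, the immature subset (called CD27). The comparison used 6 of 18 expression arrays, 3 of each subset, chosen by their titles, and all 35399 probe sets. The mice were Runx3 +/+ animals of the outbred ICR strain, 6 weeks old and male or female, and they had received 2 injections, 2 days apart, of IL15/Ra, interleukin-15 coupled to the alpha subunit of its receptor, which stimulates NK cells to grow and divide. Spleen NK cells were enriched by negative selection and sorted as NKp46+ cells. All 18 arrays came from injected mice, so none shows the unstimulated state. The other arrays measured WT CD27+CD11b+ double-positive cells (DP) and the same 3 subsets of Runx3 -/- (KO) mice, 3 arrays each, treated alike. Runx3 encodes a DNA-binding regulator with a Runt domain, and the series was made to find the genes it controls in NK cells. The labels do not say whether the 3 arrays of a group are separate animals or pools, so the p-values measure the spread between these samples, which may be partly technical.

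Mouse NK cells leave the bone marrow as CD27-bearing cells that divide readily and respond to cytokines, pass through a double-positive stage, and lose CD27 as they become circulating cells with strong killing capacity. Interleukin-15 keeps them alive and drives this maturation, and the transcription factors T-bet (Tbx21), Eomes, Zeb2 and Blimp-1 (Prdm1) are known regulators of it. The immature end shares many surface molecules with group 1 innate lymphoid cells (ILC1), relatives of NK cells that reside in tissues.

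Values are log2 intensities, 1 unit being a 2-fold difference, and each group below is given as mean ± SD over 3 arrays. The lowest value in the table was 3.91, the highest 14.96, and the median probe set 6.33. Pearson's r across probe sets was 0.988 to 0.993 among the CD27 arrays, 0.993 to 0.994 among the CD11b arrays and 0.980 to 0.988 between the subsets. The median SD of a probe set was 0.10 in CD27 and 0.09 in CD11b cells. Because the arrays measure bulk RNA, a fall in the share of cells that express a gene and a fall of its RNA per cell cannot be told apart.

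The markers of the sort followed the gates. Cd27, a receptor of the TNF receptor family, read 11.76, 11.91 and 11.72 on the CD27 arrays and 9.85, 9.94 and 9.83 on the CD11b arrays. It fell 3.80-fold (95% interval 2.51 to 5.75, limma adjusted p = 0.000885) and stayed well above the array median, in cells gated as lacking the surface protein. Itgam, which encodes CD11b, read 10.56, 10.62 and 9.25 on the CD27 arrays and 12.57, 12.63 and 12.61 on the CD11b arrays. It rose 5.49-fold (3.73 to 8.09, limma adjusted p = 7.14e-05), and its level in the CD11b-negative gate was also well above the median. Ncr1, which encodes the gating receptor NKp46, lay between 13.63 and 13.80 on the 6 arrays, and its change of 0.09 did not pass (limma adjusted p = 0.647). Runx3 averaged 11.45 ± 0.05 in CD27 and 11.76 ± 0.12 in CD11b cells. The 3 CD11b arrays of Runx3 lay above the 3 CD27 arrays, but the change of 0.31 did not pass (limma adjusted p = 0.138). It passed when the replicate number was a block in the fit.

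Of the 35399 probe sets 1771 passed at a limma adjusted p under 0.05, a share of 5%. In CD11b cells 1018 were higher (2.88%) and 753 lower (2.13%). With the replicate number as a block, 3865 passed, 2240 higher and 1625 lower. Without single arrays the count fell to between 1052 and 1415. It was 1121 without CD27 replicate 2, 1125 without CD27 replicate 3, 1052 without CD11b replicate 1 and 1092 without CD11b replicate 2. After cyclic loess normalization 51.4% of the called probe sets were higher, against 57.48% in the deposited values. The CD27 and CD11b arrays did not overlap for 1769 of the 1771, which passing nearly requires, and for 28.3% of all probe sets.

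Counted by gene, with the probe set of the highest mean standing for each of 19938 genes, 741 genes were higher and 495 lower in CD11b cells. These are 3.72% and 2.48% of the genes measured. Rises were more numerous and falls were larger. The median size was 1.48-fold among the risen genes and 1.71-fold among the fallen genes, 30 genes rose and 49 fell by at least 4-fold, and 8 rose and 15 fell by at least 8-fold. Of the fallen genes 146, or 29.5%, ended below the median probe set in CD11b cells. Of the risen genes 122, or 16.5%, started below it in CD27 cells. The median change over all genes was 0.03. The plot of gene levels in both subsets shows falls reaching further from the diagonal than rises.

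**Figure D1:**
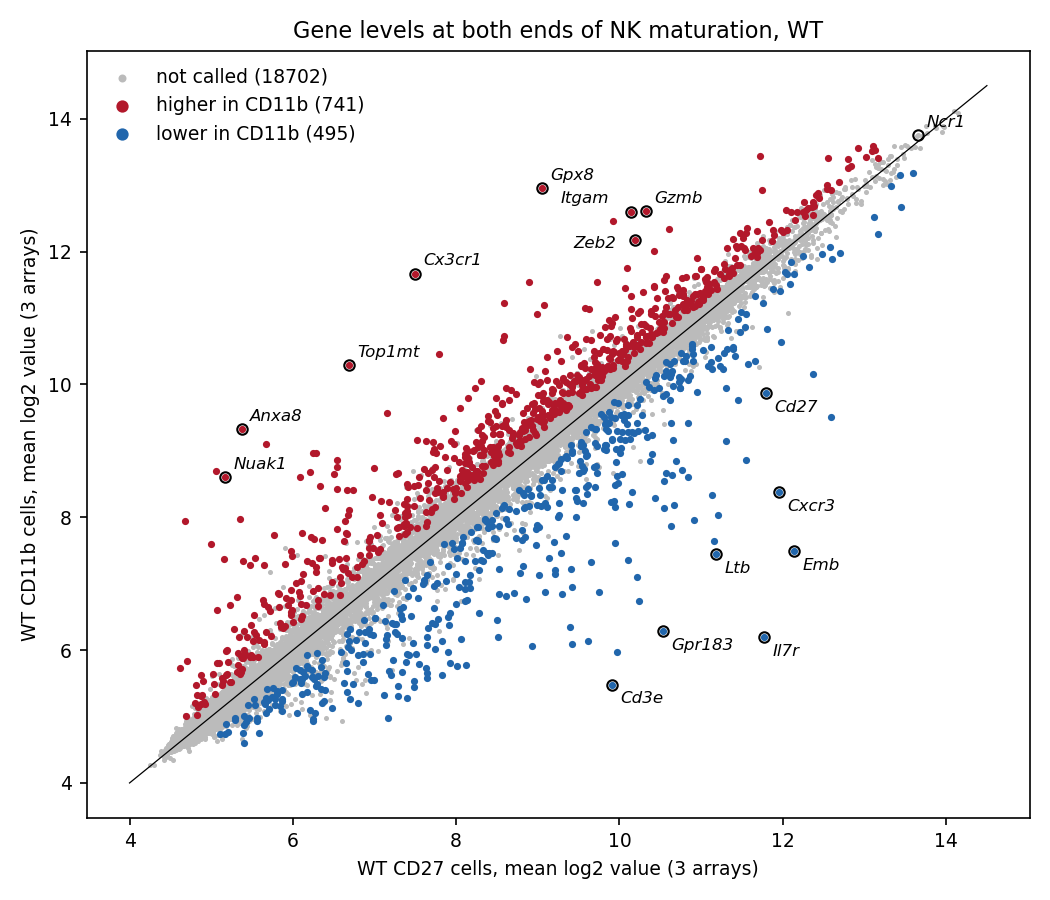
Mean log2 value of 19938 genes in WT CD27 cells (x axis, 3 arrays) and WT CD11b cells (y axis, 3 arrays). Genes above the diagonal line are higher in CD11b cells; 741 genes called higher are red and 495 called lower are blue, and Il7r lies farthest below the line at 11.77 against 6.19.

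The 14 largest rises included receptors and adhesion molecules that place cells in blood vessels and tissue. Cx3cr1, the receptor for fractalkine on endothelium, read 9.17, 6.53 and 6.80 on the CD27 arrays and 11.80, 11.42 and 11.78 on the CD11b arrays. It rose by 4.17 log2 (interval of the fold 8.15 to 39.8, limma adjusted p = 0.000342), and CD27 replicate 1 stood far above the other CD27 arrays without reaching the CD11b arrays. Podxl, which encodes the sialomucin podocalyxin, read 5.74, 5.85 and 5.43 and then 8.98, 9.28 and 9.07, a 10.8-fold rise (8.42 to 13.8, limma adjusted p = 7.18e-08). Cmklr1, the chemerin receptor, averaged 7.79 ± 0.83 and 10.46 ± 0.19 and rose by 2.67 log2 (limma adjusted p = 0.000132). Itgb4, the beta 4 integrin chain, lay at 5.27 to 5.40 on the CD27 arrays and at 7.15 to 8.72 on the CD11b arrays, which differed widely among themselves. Anxa8, an annexin that binds membranes in the presence of calcium, read 5.55, 5.35 and 5.22 in CD27 cells and 8.58, 9.89 and 9.52 in CD11b cells. It rose 15.5-fold (9.09 to 26.3, limma adjusted p = 1.54e-05) from a level below the median probe set.

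Enzymes made up most of the other large rises. Gpx8, a glutathione peroxidase family member of the endoplasmic reticulum, read 9.78, 8.74 and 8.65 in CD27 cells and 12.90, 13.03 and 12.94 in CD11b cells. Its 14.9-fold rise (10.1 to 22.1, limma adjusted p = 1.24e-06) put it among the brightest signals of the mature cells. Cbr2, a carbonyl reductase, averaged 5.06 ± 0.05 and 8.70 ± 0.32, a rise of 3.64 log2 (limma adjusted p = 2.99e-07). Top1mt, the mitochondrial topoisomerase I, read 6.33, 6.57 and 7.18 and then 9.77, 10.07 and 11.04 (12.1-fold, 5.64 to 26.1, limma adjusted p = 0.000781). Nuak1, a kinase related to AMP-activated kinase, read 5.24, 5.13 and 5.13 in CD27 cells and 8.69, 8.23 and 8.88 in CD11b cells. It rose 10.8-fold (8.71 to 13.4) and had the smallest adjusted p of these largest changes (limma, 1.59e-08). Cma1, a chymase best known from mast cells, averaged 8.58 ± 0.64 and 11.23 ± 0.05. Ndrg2 of the N-myc downstream-regulated family (2.68), Cdc20b, a relative of the mitotic regulator Cdc20 (2.65), and Fam81a (3.27) also rose.

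The 14 largest falls included receptors for cytokines and chemokines. Il7r, the interleukin-7 receptor alpha chain, read 11.57, 12.42 and 11.34 on the CD27 arrays and 5.96, 6.38 and 6.25 on the CD11b arrays. This 47.9-fold fall (24.4 to 93.8, limma adjusted p = 7.52e-06) was the largest change of a named gene in either direction. Gpr183, the oxysterol receptor known as EBI2, fell 18.9-fold (12.3 to 29.2, limma adjusted p = 1.35e-06), from 10.53 ± 0.30 to 6.29 ± 0.42. Cxcr3, the receptor for interferon-induced chemokines, averaged 11.95 ± 0.17 and 8.38 ± 0.22 (11.9-fold lower, 8.39 to 16.8, limma adjusted p = 1.10e-06). Cxcr6, a receptor tied to residence in liver and other tissues, averaged 10.24 ± 0.68 and 6.74 ± 0.39. Kit, the stem cell factor receptor, read 8.83, 9.78 and 10.24 in CD27 cells and 6.14, 6.39 and 5.90 in CD11b cells. Of these receptors, Il7r, Gpr183 and Kit ended below the median probe set, Cxcr6 just above it, and Cxcr3 remained at a moderate level.

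Ligands fell as well. Xcl1, a chemokine that attracts cross-presenting dendritic cells, read 10.92, 11.52 and 11.02 and then 7.77, 7.62 and 7.55, an 11.4-fold fall (limma adjusted p = 1.26e-06). Ltb, which encodes lymphotoxin beta, averaged 11.19 ± 0.30 and 7.44 ± 0.54 (13.4-fold lower, limma adjusted p = 1.04e-05), and Tnfsf10, which encodes the death ligand TRAIL, 10.22 ± 0.25 and 7.10 ± 0.40 (8.65-fold lower, limma adjusted p = 6.31e-06). Emb, the adhesion molecule embigin, read 11.91, 12.53 and 11.96 in CD27 cells and 6.56, 8.73 and 7.19 in CD11b cells. Its fall of 4.64 log2 had a wide interval, 7.74-fold to 80.7-fold (limma adjusted p = 0.00287), and CD11b replicate 2 stood apart from the other CD11b arrays. The SLAM family receptor Slamf6 (-3.17) and the organic anion transporter gene Slco3a1 (-3.33) also fell.

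The remaining large falls were genes of the T cell receptor complex. Cd3e read 10.49, 11.09 and 8.14 in CD27 cells and 5.55, 5.53 and 5.37 in CD11b cells, Cd3d 9.38, 9.93 and 10.58 and then 6.29, 5.86 and 5.78, and the gamma chain segment Trgv1 12.20, 12.70 and 12.89 and then 9.34, 9.76 and 9.42. The falls were 21.5-fold, 15.9-fold and 8.50-fold (limma adjusted p = 0.000231, 2.41e-06 and 1.04e-05). The 3 CD27 arrays did not follow 1 order: replicate 3 was lowest for Cd3e and highest for Cd3d and Trgv1. NK cells express CD3 chains in part without a T cell receptor, and the T cell markers as a whole are given with the other cell types. The plot of single arrays shows these rises and falls, which were chosen among genes whose CD27 and CD11b arrays do not overlap.

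**Figure D2:**
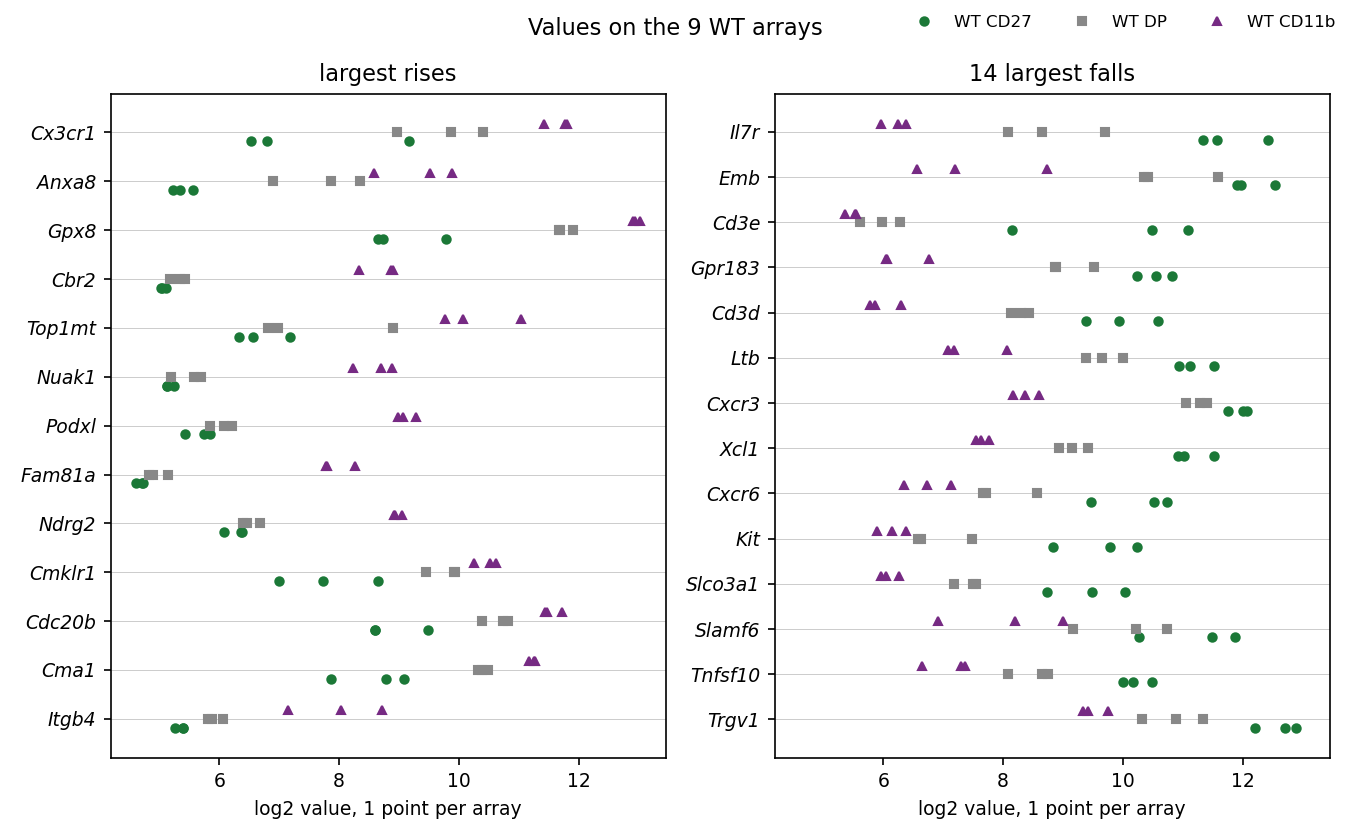
Log2 values (x axis) of the largest rises (left) and the 14 largest falls (right) on the 9 WT arrays, 1 point per array, for CD27 (circles), DP (squares) and CD11b cells (triangles). CD27 and CD11b points are separate in each gene, and the DP points of Cbr2, Nuak1 and Ndrg2 lie near the CD27 points while those of Gpx8 and Cma1 lie nearer the CD11b points.

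Runx3 and T-bet are both active in NK cells, so the promoters of the called genes were searched for the core letters these factors are known to bind. RefSeq promoter sequences (GRCm38.p6, 250 bases before the gene start) were matched by symbol for 610 of the 741 risen and 376 of the 495 fallen genes. The Runx core TGTGGT, on either strand, stood in 11.5% of the promoters of risen genes, 12.9% of those of fallen genes and 11.8% of those of measured genes that were not called. The T-box core GGTGTGA stood in 2.93%, 4.36% and 3.12%, and the E-box CACCTG, the type of site bound by Zeb2, in 15.3%, 20.1% and 16.9%. Of the 32 genes named for the largest changes or for a difference between genotypes, 25 had a promoter and 6 of these held the Runx core. They are Anxa8, Avil, Cx3cr1, Cxcr3, Cxcr6 and Xcl1. Nuak1, Dscam, Ndrg2 and Arhgap5, like the other genes of the 25, had promoters without it. Gzmb, Dixdc1 and Cdhr1, whose changes also differed between genotypes, are not among the 32. The Gzmb promoter held the Runx core at 2 places, starting 93 and 34 bases before the gene start. Gzmb was picked outside the rule, and the promoters of Dixdc1 and Cdhr1 were not read singly. The promoters of Anxa8 and Cx3cr1, which rose, and of Xcl1, which fell, are shown. The capitals mark the Runx core on either strand, and a match is a description of letters, not a shown binding site.
Anxa8, chr14:34085729-34085978, plus strand: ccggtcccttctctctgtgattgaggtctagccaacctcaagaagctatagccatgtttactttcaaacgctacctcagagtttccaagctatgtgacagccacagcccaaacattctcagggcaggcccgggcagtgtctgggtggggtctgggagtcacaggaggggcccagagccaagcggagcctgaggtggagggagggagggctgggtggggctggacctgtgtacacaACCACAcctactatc
Cx3cr1, chr9:120068297-120068546, minus strand: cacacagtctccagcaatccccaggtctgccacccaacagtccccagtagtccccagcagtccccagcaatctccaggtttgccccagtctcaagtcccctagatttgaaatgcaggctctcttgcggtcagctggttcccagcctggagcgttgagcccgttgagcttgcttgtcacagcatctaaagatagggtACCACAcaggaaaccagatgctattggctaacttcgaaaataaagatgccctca
Xcl1, chr1:164935523-164935772, minus strand: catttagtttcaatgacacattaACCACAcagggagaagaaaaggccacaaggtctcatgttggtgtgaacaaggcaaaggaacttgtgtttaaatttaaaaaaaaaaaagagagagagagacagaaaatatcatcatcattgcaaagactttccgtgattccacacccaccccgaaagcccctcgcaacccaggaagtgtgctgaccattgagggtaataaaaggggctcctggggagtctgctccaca
The core starts 15 bases before the gene start in Anxa8, 54 bases in Cx3cr1 and 227 bases in Xcl1.

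Gene lists were then read by role, each against the 3.72% of all genes that rose and the 2.48% that fell. The lists share members, so their counts are not separate results. Of the called mature NK markers, 3 are also cytotoxic granule genes and 3 transcription factors. Of the called immature NK markers, 3 are also cytokine receptors and 3 chemokine receptors or egress genes. Itgam among the mature and Cd27 among the immature markers encode the gating proteins, so the sort bears on their direction. Of 23 mature NK markers, genes known from earlier descriptions of CD11b cells, 15 rose and 0 fell, with a median change of 0.86. Beside Cx3cr1 and Itgam they included S1pr5, a sphingosine phosphate receptor needed to leave lymphoid organs (1.19), the ectonucleotidase gene Entpd1, known as CD39 (1.57), and Klrg1, an inhibitory lectin receptor. Klrg1 read 12.24, 11.57 and 11.35 and then 13.51, 13.43 and 13.38, but its call was lost with 4 single arrays left out (limma adjusted p up to 0.0811, without CD27 replicate 3). Ccl5 was at 13.86 ± 0.04 and 13.89 ± 0.04 and S100a6 at 8.98 ± 0.77 and 10.13 ± 0.32, and neither passed. Of 20 immature NK markers 13 fell and 0 rose, with a median of -2.03. Cd27, Il7r, Kit, Cxcr3, Emb, Ltb, Xcl1 and Gpr183 are among them, as are Cd226 (-2.16), the chemokine receptor Cxcr4 (10.64 ± 0.43 and 8.64 ± 0.67) and the phosphatase gene Inpp4b (-2.48). Lef1, another immature marker, averaged 10.54 ± 0.30 and 10.38 ± 0.05 and did not pass (limma adjusted p = 0.724). With the replicate number as a block, 2 of the mature markers passed as lower.

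**Figure D3:**
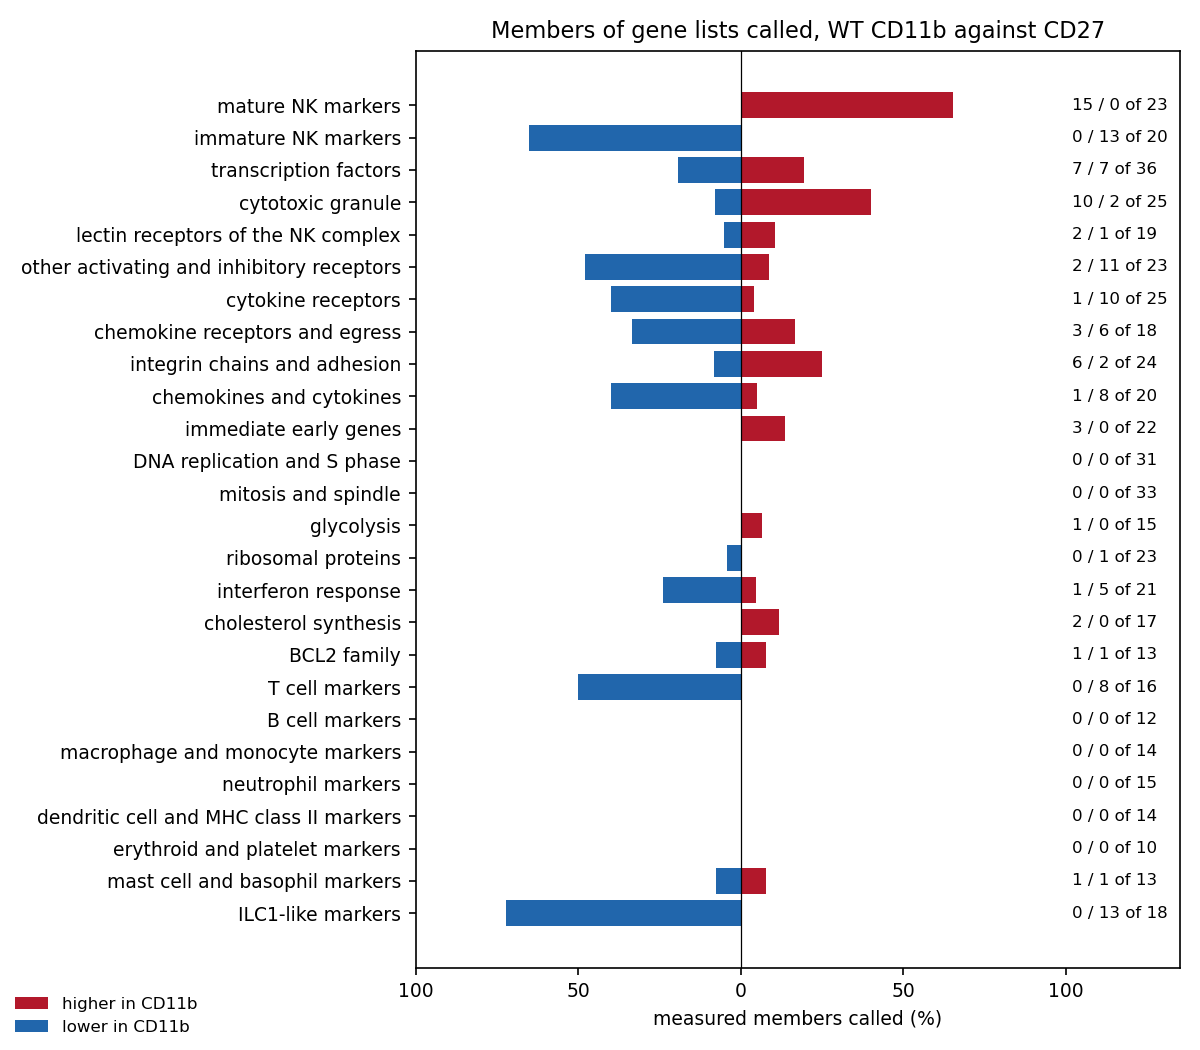
Percent of the measured members (x axis) of each gene list (y axis) called higher (red, to the right) or lower (blue, to the left) in WT CD11b against CD27 cells, with the counts higher / lower of measured members printed at the right. Immature NK and ILC1-like markers moved down, mature NK markers up, and the cell cycle lists have 0 calls in the fit of all 18 arrays.

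The killing machinery shifted in composition. Of 25 cytotoxic granule genes 10 rose and 2 fell, with a median of 0.14. Gzmb, which encodes granzyme B, read 10.86, 9.68 and 10.43 in CD27 cells and 12.74, 12.51 and 12.59 in CD11b cells, a 4.89-fold rise (3.56 to 6.73, limma adjusted p = 2.08e-05). Gzma rose from 12.93 ± 0.07 to 13.55 ± 0.01 and the pore-forming protein gene Prf1 from 12.55 ± 0.15 to 13.41 ± 0.06. Gzmm, which encodes granzyme M, went the other way. It read 8.27, 8.50 and 8.75 and then 6.29, 6.05 and 6.27 and fell 4.94-fold (3.43 to 7.11, limma adjusted p = 7.23e-05). Serpinb9b, a gene of the serpin family of protease inhibitors, read 10.50, 10.22 and 9.03 and then 12.75, 12.32 and 12.32, a rise of 2.55 log2 (limma adjusted p = 0.000144). Genes of granule release rose by less: Rab27a from 9.59 ± 0.02 to 10.68 ± 0.03 and Stx11 from 9.26 ± 0.18 to 9.99 ± 0.08. Among the death ligands Fasl rose (0.67) while Tnfsf10 fell (-3.11). Nkg7, a granule membrane protein gene, averaged 13.75 ± 0.04 and 13.89 ± 0.04 and did not pass (limma adjusted p = 0.257).

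Surface receptors of recognition divided by family. Of 19 lectin receptors of the NK gene complex 2 rose, Klrb1a (1.07) and Klrg1 (1.72), and 1 fell, Klrb1f (-0.42), with a median of 0.11. Klrk1, which encodes NKG2D, was at 12.05 ± 0.07 and 12.08 ± 0.03, and its change of 0.03 had a 95% interval of -0.20 to 0.27. Members of this family resemble each other in sequence, so probe sets may read more than 1 of them. With the block 4 rose and 4 fell. Of 23 other activating and inhibitory receptors 11 fell and 2 rose, with a median of -0.33. Cd160 read 11.30, 11.32 and 12.04 and then 9.14, 8.72 and 8.72, a 6.45-fold fall (4.51 to 9.22, limma adjusted p = 1.54e-05). Crtam (-2.24), the inhibitory receptor Lilrb4a (-2.34), Cd226 (-2.16) and the nectin-binding inhibitory receptor Tigit (-1.05) fell too, so activating and inhibitory receptors were both among the falls. The collagen receptor gene Lair1 (0.82) and Cd48 (0.48) were the members that rose.

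Cytokine receptors fell more often than they rose. Of 25 measured, 10 fell and 1 rose, with a median of -0.34. Il2ra, the alpha chain of the high-affinity interleukin-2 receptor, read 8.57, 8.69 and 8.22 and then 6.55, 6.42 and 6.38, a 4.13-fold fall (2.61 to 6.55, limma adjusted p = 0.00124). Il21r read 6.79, 7.29 and 8.36 and then 5.49, 5.39 and 5.47, ending below the median probe set. Il2rb, the chain that binds interleukin-15, fell by 0.34 log2 from 13.32 ± 0.02 (limma adjusted p = 0.0314), and Il15ra averaged 8.57 ± 0.16 and 8.21 ± 0.17 and did not pass. Il12rb2, a chain of the interleukin-12 receptor, was the member that rose, from 11.48 ± 0.28 to 12.28 ± 0.07 (limma adjusted p = 0.000346). With the block 4 rose. Of 18 chemokine receptors and egress genes 3 rose, Cx3cr1, Cmklr1 and S1pr5, and 6 fell, Cxcr3, Cxcr4, Cxcr5, Cxcr6, Ccr7 and Gpr183. S1pr1, the other sphingosine phosphate receptor of lymphocytes, varied from 7.43 to 9.92 in CD27 and from 6.68 to 8.14 in CD11b cells and did not pass.

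Chemokine and cytokine genes fell more often than they rose. Of 20 measured, 8 fell and 1 rose, with a median of -0.04, and 8 of the 20 lay below the median probe set in both subsets. Tnf, which encodes tumour necrosis factor, read 7.77, 7.68 and 8.90 and then 5.94, 5.75 and 5.65, a 5.06-fold fall (3.41 to 7.51, limma adjusted p = 0.000124). Tnfsf8, the CD30 ligand gene, averaged 7.64 ± 0.54 and 5.65 ± 0.10 and fell by 1.99 log2. Ccl9, a chemokine, rose from 5.76 ± 0.30 to 7.74 ± 0.29. Ifng, which encodes interferon gamma, varied among arrays of both subsets, from 9.26 to 10.19 in CD27 and from 9.25 to 10.08 in CD11b cells. Its change of 0.06 had an interval of -0.61 to 0.73, which allows a difference of either sign.

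Of 24 integrin chains and adhesion genes 6 rose and 2 fell, with a median of 0.16, and with the block 11 rose and 4 fell. The rises of Itgb2 (0.40) and Itga4 (0.46) were small beside those of Itgam and Itgb4, and Spn, which encodes CD43, rose from 10.82 ± 0.27 to 11.63 ± 0.08 (limma adjusted p = 0.00331). Itga2, the NK marker DX5, rose by 0.46, a call lost with 4 arrays left out in turn. Itgb3 (-1.01) and Cd44 (-0.80) fell, and the call of Itgb3 was lost as well without any of 4 arrays.

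Transcription factors split evenly, with 7 of 36 higher and 7 lower and a median of -0.01. Zeb2 read 10.71, 9.96 and 9.92 in CD27 cells and 12.09, 12.09 and 12.35 in CD11b cells, a 3.95-fold rise (2.89 to 5.39, limma adjusted p = 6.89e-05). Its relative Zeb1 fell from 9.95 ± 0.11 to 9.03 ± 0.06. Irf8 rose from 10.60 ± 0.11 to 12.34 ± 0.11, Prdm1 from 10.07 ± 0.32 to 11.45 ± 0.22 and Klf12 from 9.63 ± 0.72 to 11.14 ± 0.13. Tbx21 rose by 1.40-fold (1.22 to 1.62, limma adjusted p = 0.00747), from 12.26 ± 0.15 to 12.75 ± 0.03. Eomes read 12.42, 12.52 and 12.50 and then 12.39, 12.54 and 12.53, and the change of 0.01 did not pass (limma adjusted p = 0.982, interval of the fold 0.890 to 1.14). Aff3 read 10.54, 10.77 and 10.34 and then 8.03, 8.48 and 7.91, a 5.33-fold fall (3.73 to 7.60, limma adjusted p = 3.75e-05). Ikzf2, which encodes Helios, fell by 1.78 log2, Rora, a regulator of innate lymphoid cells, by 1.17 and Myb by 1.92. The Myb call was lost with 4 arrays left out in turn. With the block 11 factors rose.

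Lists of cell state gave 0 to 3 calls each, beside 6.2% of all genes called in either direction. Of 31 DNA replication genes 0 passed and the median was -0.06. Of 33 mitosis and spindle genes 0 passed, 15 of them below the median probe set in both subsets, and the median was 0.19. With the block 2 replication genes rose and 2 fell, and 5 mitosis genes rose. Aurkb, a mitotic kinase, averaged 6.38 ± 0.10 and 6.93 ± 0.06 without overlap of the arrays, and passed with the block and when the 6 arrays were fitted alone (limma adjusted p = 0.0144). Foxm1 (0.57), a mitotic transcription factor, and the replication factor gene Rfc3 (0.65) passed in the same settings and without the 3 arrays of KO replicate 3. The model shares 1 spread over all 18 arrays, and the mean level of the mitosis list was 6.52 to 6.66 on the CD27 arrays, 6.75 to 6.87 on the CD11b arrays, 7.14 to 8.17 on the KO arrays of replicates 1 and 2, and 9.93 to 10.35 on those of KO replicate 3. The mean levels of the CD27 and CD11b arrays did not overlap, and whether these genes passed changed with the arrays fitted. The proliferation marker Mki67 averaged 9.03 ± 0.16 and 9.26 ± 0.23 with an interval of -0.97 to 1.43 for its change. Of 15 glycolysis genes Pfkp rose (0.38), of 23 ribosomal protein genes Rps19 fell (-0.52), of 17 cholesterol synthesis genes Dhcr7 (0.56) and Mvd (0.37) rose, and of 13 BCL2 family genes Pmaip1 rose (0.41) and Bcl2l1, which encodes the survival protein BCL-XL, fell (-0.58). Of 22 immediate early genes Junb (0.88), Nr4a2 (0.60) and Dusp2 (1.14) rose. The calls of Dhcr7, Mvd, Pmaip1, Junb, Nr4a2 and Dusp2 were each lost with at least 1 array left out.

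Interferon response genes leaned down, with 5 of 21 lower, 1 higher and a median of -0.37, and with the block 11 fell. Rtp4 read 9.39, 9.52 and 9.50 and then 8.40, 7.68 and 7.92, a 2.77-fold fall (1.87 to 4.10, limma adjusted p = 0.00424). Ifih1, the RNA sensor MDA5, averaged 8.44 ± 0.19 and 7.47 ± 0.26. Ifit1 (-1.04) and Oas3 (-0.85) fell, and each lost its call with 5 of the 6 arrays left out in turn. Ifit2 rose instead (0.79), from 8.20 ± 0.23 to 8.99 ± 0.16.

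Markers of other cells were read in the same arrays. Of 16 T cell markers 8 fell and 0 rose, with a median of -0.59, and the mean over the list was 7.57 to 7.90 on the CD27 arrays and 6.55 to 6.60 on the CD11b arrays. The fallen members were Cd3d, Cd3e, Cd3g, Cd28, Bcl11b, Icos, Trat1 and Ubash3a, and Cd28 and Icos also stand among the receptors above. Cd3e and Cd3d were bright in CD27 cells, at 8.14 to 11.09 and 9.38 to 10.58. Of the 8 members that did not pass, Cd4, Cd8a, Cd5 and Themis were dim on all 6 arrays. Cd4 lay between 4.85 and 5.06, Cd8a between 5.52 and 6.16, Cd5 between 5.17 and 6.05 and Themis between 4.70 and 5.49, below the median probe set of 6.33, and none passed. Cd3g read 12.23, 12.26 and 12.62 in CD27 cells and 10.82, 9.89 and 9.75 in CD11b cells, so it stayed bright in both. The part of T cells in the falls of this list was not tested.

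Of 18 markers shared with ILC1 13 fell and 0 rose, with a median of -2.34. The list shares 9 measured genes with the immature NK markers, 7 of them called, so its count is not a separate result. Among the members not shared, Tmem176b read 9.64, 9.88 and 8.67 and then 6.35, 6.13 and 6.57 (8.26-fold lower, limma adjusted p = 0.000177), and Tmem176a, Cd200r1 and Rora fell with it. Itga1, the integrin chain CD49a that marks ILC1, averaged 10.02 ± 0.33 and 9.17 ± 0.52 and did not pass (limma adjusted p = 0.459). Eomes, which ILC1 largely lack, was bright on all 6 arrays, but a bulk level cannot show whether some of the cells lacked it. The part of ILC1 in these falls was not tested. Of the mast cell and basophil markers 1 of 13 rose, Cma1, and 1 fell, Kit, while the other 11 were below the median in both subsets, the defining mast cell gene Mcpt4 and Fcer1a included. B cell, macrophage, neutrophil, dendritic cell and erythroid lists had 0 calls among 12, 14, 15, 14 and 10 measured genes. The fit shares its spread with KO CD11b replicate 3, where the neutrophil, dendritic cell and macrophage lists averaged 9.15, 9.09 and 6.35. On the 6 WT arrays they averaged 5.14 to 5.20, 6.05 to 6.27 and 5.29 to 5.35. That array widens the spread of these genes, and the list counts were not repeated without it. The 0 calls therefore do not show that the WT subsets were alike in these markers. With the block 2 B cell markers and 1 dendritic cell marker passed as lower. Cd22, a B cell marker, averaged 7.21 ± 0.61 and 5.70 ± 0.11 (limma adjusted p = 0.0802), and passed with the fixed and random blocks, with the 6 arrays alone and without KO replicate 3. Cd79b, another, averaged 6.35 ± 0.06 and 5.69 ± 0.20 and passed in the same settings except the random block. The mean level of the B cell list was 5.29 to 5.43 on the CD27 arrays and 5.13 to 5.19 on the CD11b arrays, without overlap, and the part of B cells in the falls was not tested. Cd79a was at 4.55 ± 0.09 and 4.64 ± 0.10.

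Double-positive cells were read on the scale set by the 2 ends, where 0 is the CD27 mean and 1 the CD11b mean of a gene. The DP arrays lay between the ends for 714 of the 741 risen and 453 of the 495 fallen genes. The median place was 0.446 for risen genes (quartiles 0.281 and 0.577) and 0.514 for fallen genes (0.344 and 0.726). Single DP arrays gave medians of 0.566, 0.283 and 0.456 for the risen genes, so the DP arrays differed among themselves. These places use the same CD27 and CD11b arrays as the calls and are given as a description.

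Individual genes differed in place. Of the genes of the gates, Cd27 stood at 0.10 in DP cells and Itgam at 0.90. Risen genes still near their CD27 level in DP cells were Cbr2 (0.07), which read 5.43, 5.35 and 5.17 in DP cells, Fam81a (0.08), Ndrg2 (0.09), Nuak1 (0.09) and Podxl (0.11). Gzmb (0.76), Serpinb9b (0.86), Cmklr1 (0.74), Prdm1 (0.74) and Gpx8 (0.69) had covered most of the distance by then. Among the falls, Cd3e (0.89), Tnf (0.89), Il21r (0.88), Kit (0.78) and Ikzf2 (0.79) were already near their CD11b level in DP cells. Cxcr3 (0.20), Emb (0.29) and Myb (0.15) were still closer to their CD27 level, though the mean of Emb had gone from 12.14 to 10.78. Il7r stood midway at 0.53. By limma 55 of the 741 risen genes passed as higher from CD27 to DP and 77 from DP to CD11b. Among all 19938 genes 60 (0.301%) and 84 (0.421%) did. Of the 495 fallen genes 88 and 65 passed as lower, and of all genes 89 (0.446%) and 66 (0.331%). Each step reuses the CD27 or CD11b arrays by which these genes were chosen, so a share above that of all genes follows from the choice. Neither step alone passed for 614 of the risen and 357 of the fallen genes.

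**Figure D4:**
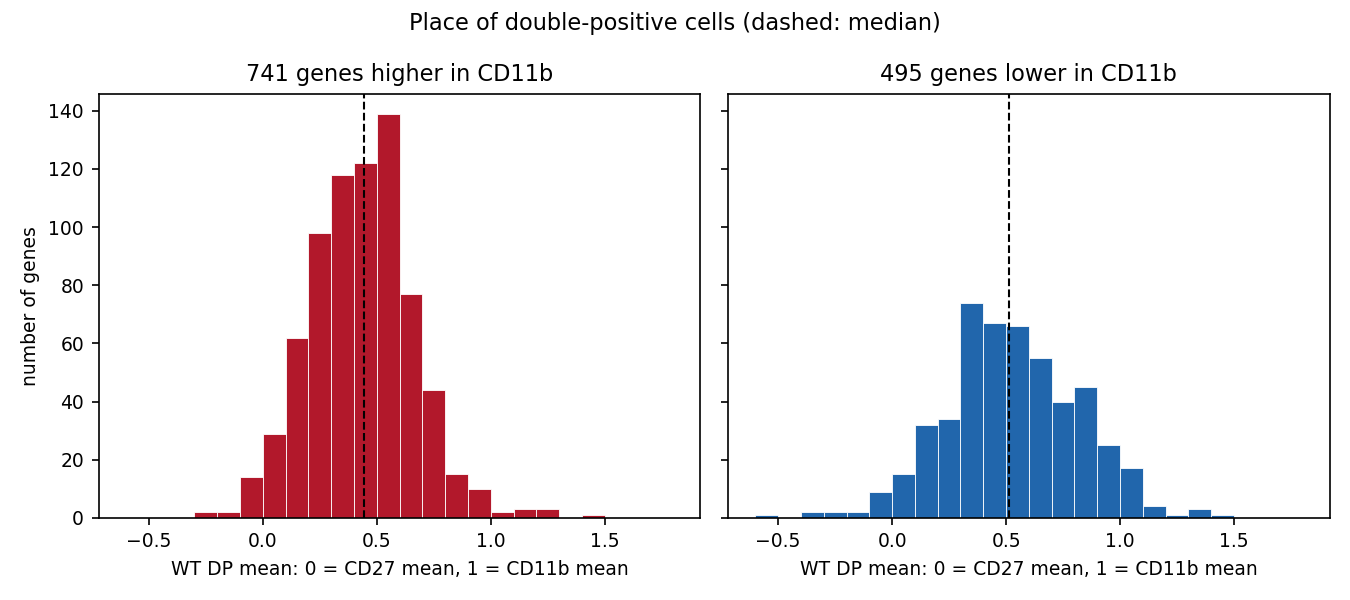
Place of the mean of the 3 WT DP arrays between the CD27 mean (0) and the CD11b mean (1) for each gene called higher (left, 741 genes) or lower (right, 495 genes); bars count genes and the dashed line is the median, 0.446 and 0.514. Most genes of both kinds lie between the ends, with a longer stretch toward 1 among the fallen genes.

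The same comparison in KO mice shares no array with the WT comparison and asks which changes occur without intact Runx3. Runx3 read 10.94, 11.14 and 10.73 on the KO CD27 arrays and 11.46, 11.24 and 11.10 on the KO CD11b arrays, so its probe set still gave a signal. Which exons the allele lacks, and whether this probe set reads them, is not given in the sources used here. In KO cells 734 probe sets passed, 2.07% of those tested (2185 with the block, and 377 without KO CD11b replicate 1 and 400 without KO CD27 replicate 1). Of the 741 genes that rose in WT, 708 had a positive change in KO, 95.5% against 57.6% of all genes, and 198 passed there. Of the 495 that fell, 465 had a negative change, 93.9% against 42.4% of all genes, and 179 passed. No gene passed in opposite directions. The median change of the WT-called genes was smaller in KO, at 0.33 against 0.56 for rises and at -0.47 against -0.77 for falls. These genes were chosen by their WT values. For the 265 genes called higher (1.33%) and 232 called lower (1.16%) by KO values, the medians were 0.62 in KO and 0.64 in WT for rises, and -0.87 and -0.83 for falls.

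Several of the largest WT changes were also large in KO cells. Xcl1 changed by -3.51 in WT and -3.70 in KO cells, Top1mt by 3.60 and 4.08, and Podxl by 3.43 and 3.00. Il7r read 11.66, 11.88 and 11.81 and then 6.92, 7.11 and 8.74 in KO cells, a change of -4.19 beside -5.58 in WT. The difference of these Il7r changes did not pass (limma adjusted p = 0.826). The KO CD11b array of replicate 3 carried markers of other cells. Its mean over 15 neutrophil markers was 9.15, against 5.14 to 5.20 on the 6 WT arrays, and over 14 dendritic cell and MHC class II markers 9.09, against 6.05 to 6.27. Without the 3 arrays of KO replicate 3, 608 probe sets passed in KO cells and 2628 in WT cells, 1548 of them higher.

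A difference between the WT and KO changes passed for 13 probe sets (0.0367%) and 11 genes (0.0552% of the genes tested). All 11 were called in WT, and in 10 the KO change was the smaller. Nuak1 averaged 5.01 ± 0.04 in KO CD27 cells and 5.35 ± 0.13 in KO CD11b cells. The KO change minus the WT change was -3.09 log2 (interval -3.53 to -2.65, limma adjusted p = 1.55e-05). Dscam, a cell adhesion molecule of the immunoglobulin superfamily, differed at the immature end. It read 6.69, 7.54 and 7.27 in WT CD27 cells and 4.98, 5.04 and 4.94 in WT CD11b cells, but already 4.89, 4.87 and 4.93 in KO CD27 cells (limma adjusted p of the difference = 0.002). Arhgap5, a GTPase-activating protein gene, showed the same arrangement at 6.97, 7.08 and 6.71 in WT CD27 cells and 5.63, 5.57 and 5.59 in KO CD27 cells (limma adjusted p = 0.0133). Ndrg2 rose in both genotypes, by 2.68 in WT and 1.12 in KO cells (limma adjusted p = 0.0133).

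For Gzmb the genotypes met at the mature end and differed at the immature end. KO CD27 cells read 12.49, 12.28 and 12.35, near the 12.51 to 12.74 of WT CD11b cells, and KO CD11b cells 12.67, 12.86 and 12.60. The KO change was 0.33 against 2.29 in WT (limma adjusted p of the difference = 0.0426). For Anxa8, Itgb4, Avil and Dixdc1 the genotypes met at the immature end, and KO CD11b cells stayed low: Anxa8 at 6.56, 5.57 and 5.94 and Itgb4 at 5.77, 5.56 and 5.36. Marcks, a protein kinase C substrate gene, was the exception with the larger change in KO, 1.57 against 0.45 in WT. The calls of Nuak1, Dscam and Ndrg2 held with each of the 12 arrays left out in turn, and those of the other 8 genes did not. Without the 3 arrays of KO replicate 3, Nuak1 and Dscam passed (limma adjusted p = 0.00254 and 0.0285) and the other 9 genes did not. With the block 117 probe sets passed.

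**Figure D5:**
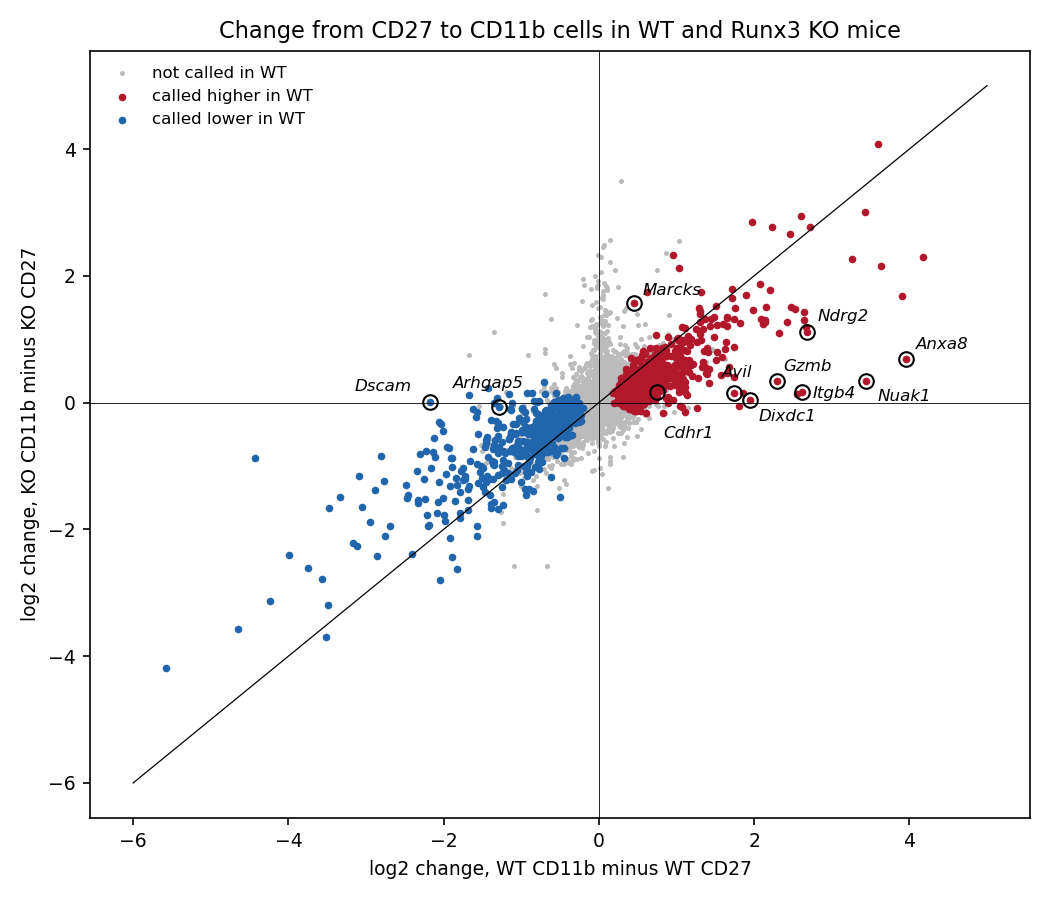
Log2 change from CD27 to CD11b cells in WT (x axis) and KO mice (y axis), 1 point per gene, with the genes called in WT in red (higher) and blue (lower) and the line of equal change. The 11 circled genes are those whose change differed between genotypes; Nuak1, Anxa8, Itgb4 and Gzmb lie between 0.17 and 0.69 on the KO axis at WT changes of 2.29 to 3.95.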

How the data were processed

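The authors made the deposited log2 values from Mouse Gene 1.0 ST arrays; RMA and Partek are named in the submitters' processing notes, without versions. That the scale is log2 was read off the range of the values. The deposited log2 table was used unfiltered. Of its 35399 probe sets 21789 had 1 gene symbol in the platform annotation, 1621 several and 11989 none listed. The number of arrays, 3 per group, limits the precision.

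With limma 3.58.1 in R 4.3.3, a model of 6 group means took in the 18 arrays (residual degrees of freedom 12, moderated by eBayes), and the CD11b minus CD27 contrast was tested in WT, in KO and as their difference, with Benjamini-Hochberg adjustment over all probe sets. Intervals are 95% intervals of that fit. A gene is called at an adjusted p under 0.05. The procedure was tested on simulated data.

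Named genes are Cd27, Itgam, Ncr1, Runx3, Tbx21 and Eomes, the 14 largest rises and 14 largest falls among called genes whose arrays do not overlap, up to 4 called members of each list by size of change (the 2 largest where none passed), and up to 6 genes by adjusted p of the genotype difference; predicted genes could be passed over. Of the largest rises, 1 is not reported here. Other list members and all gene families and neighbours were chosen after their values were seen. The comparison and the gene lists were chosen with earlier results of these data known.

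Xist was low on replicate 1 of both WT subsets (5.69 and 5.19) and above 12 on the others, so the compared groups held both sexes alike. Arrays with the same replicate number deviated together. The correlation of deviations from group means was 0.323, 0.324 and 0.218 for the 3 WT pairs of equal number and -0.213 to -0.0672 for the others. In KO it was 0.328, 0.213 and 0.465 for the pairs of equal number and -0.375 to 0.238 for the others. KO CD27 replicate 1 with CD11b replicate 2 gave the 0.238, above the equal pair of replicate 2, so equal numbers stood apart in WT but not fully in KO. The main fit had no block, so its intervals, adjusted p-values and calls do not use this pairing. The numbers were taken as pairs only in the fits with a block, which are given beside the main fit where it matters. Alternatives were cyclic loess, a filter at the median mean, a prior that is robust and follows intensity (statmod 1.5.0), fixed and random replicate blocks, array weights, a 1.5-fold minimum, 1 probe set per gene, fits of the 6 compared or the 9 WT arrays alone, and fits without KO replicate 3 (3 arrays) or without each array in turn. Sequences and gene order are RefSeq's (GRCm38.p6); the build of the array annotation is not given in the sources used here.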

Additional observations from a re-analysis of the deposited data

Results flagged for a closer look

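The change from CD27 to CD11b cells differed between genotypes, by the interaction term of the limma fit, for 11 genes. The KO change minus the WT change was -3.09 for Nuak1 (WT 3.43, KO 0.35), -3.27 for Anxa8 (WT 3.95, KO 0.69), -2.44 for the integrin chain gene Itgb4 (WT 2.61, KO 0.17), -1.96 for Gzmb (WT 2.29, KO 0.33) and -1.57 for Ndrg2 (WT 2.68, KO 1.12). It was -1.91 for Dixdc1, a Wnt pathway gene (WT 1.95, KO 0.04), -1.60 for Avil, the actin-binding protein advillin (WT 1.75, KO 0.14), and -0.58 for the cadherin-related gene Cdhr1 (WT 0.75, KO 0.17). For 2 genes that fell in WT the difference was positive: 2.19 for Dscam (WT -2.18, KO 0.01) and 1.22 for Arhgap5 (WT -1.28, KO -0.06). Marcks differed by 1.12, with the larger change in KO (WT 0.45, KO 1.57). Dixdc1 and Cdhr1 fall outside the rule for named genes and are given because they passed. With 1 array left out the largest adjusted p was 0.000147 for Nuak1, 0.0118 for Dscam and 0.0463 for Ndrg2, and 0.0514 to 0.163 for the other 8 genes, most often without KO CD27 replicate 1. With the replicate number as a block all 11 passed, at adjusted p-values of 4.49e-05 to 0.0486.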

How the results depend on the processing

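Of 70 called named genes 56 kept their call in all 12 settings run for them, 13 lost it with an array left out, 7 in another setting, and 0 changed sign. For WT the count of called probe sets (1771 in all, 1018 higher, 753 lower) was 3865 with a fixed replicate block (2240 and 1625), 3012 with a random block (1719 and 1293), 3725 with array weights (2130 and 1595) and 162 with a 1.5-fold minimum (71 and 91); it was 2628 without the 3 arrays of KO replicate 3 (1548 and 1080). The fixed block kept 1760 of the 1771 calls. For KO the counts were 2185, 1506, 2231 and 45, against 734. For the genotype difference they were 117, 42, 98 and 2, against 13, with 7 above the median mean and 8 without KO replicate 3. With 1 array left out the ranges were 1052 to 1415 for WT (577 to 818 higher, 422 to 597 lower), 377 to 720 for KO and 4 to 19 for the difference. At an unadjusted p under 0.05, 5955 WT probe sets passed. The cause of these shifts was not tested, apart from the fewer arrays or stricter criterion itself. The 6 arrays alone gave 1883 calls, 1208 of them among the 1771. With the fixed replicate block, the paired fit, no named gene lost its call. Of 702 list counts and medians compared, 100 moved, a count by over 1.5 times or a median by over its SD across the CD11b arrays. Genes below the median probe set in 1 subset lie near background, which limits what their fold changes show.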

Other observations

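Several of the largest changes were neighbours in the genome, a pattern noticed after the values were seen and given here as a description. In RefSeq's gene order, Gpx8 on chromosome 13 is followed by Gzma, Gzmk and Esm1, and all 4 rose (3.90, 0.63, 0.59 and 0.98 log2). Cdc20b (2.65) and the cyclin O gene Ccno (0.62), which lie on its other side, rose too, while Mcidas (0.20) and 2 microRNA genes between them did not pass. In KO cells Gpx8 changed by 1.68, Gzma by 0.09 and Gzmk by -0.02. On chromosome 11 Rac3, Dcxr and Cbr2 rose together (2.14, 1.25 and 3.64). Among the falls, the chain genes Cd3g, Cd3d and Cd3e on chromosome 9 fell by 2.22, 3.99 and 4.43, and Jaml, an adhesion molecule gene close by, by 1.89. Gpr18 and Gpr183 are adjacent on chromosome 14 and fell by 1.04 and 4.24. Over all placed genes, 17.9% of the risen genes had a risen neighbour, against 6.74% of the other genes, and 19.8% of the fallen genes had a fallen neighbour, against 4.42% of the others. Whether probe sets of related neighbours share signal was not tested.

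Gene families, chosen after their values were seen, gave further groups. Of 71 genes named Gpr, receptors coupled to G proteins, 11 fell and 0 rose. Gpr183 had the largest fall, Gpr34 fell from 6.36 ± 0.32 to 5.21 ± 0.08 and Gpr65, which senses acid, from 10.90 ± 0.19 to 10.35 ± 0.06. Of 20 Tnfrsf genes 5 fell and 0 rose, with Tnfrsf26 at 10.67 ± 0.37 and 8.18 ± 0.37. Of 70 genes named Rab 8 rose and 2 fell, of 10 Tmed genes 3 rose, of 6 Arf genes 3 rose (Arf1 from 12.28 ± 0.03 to 12.63 ± 0.07), and of 30 sorting nexins 4 rose, with Snx10 at 7.84 ± 0.66 and 9.49 ± 0.20. Of 8 Rap genes 4 rose, Rap2b from 8.95 ± 0.23 to 10.04 ± 0.08. These shares stand beside 3.72% of all genes higher and 2.48% lower.

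Hmcn1, which encodes the large extracellular matrix protein hemicentin-1, has 77 probe sets on the array. In all 77 the 3 CD11b arrays lay above the 3 CD27 arrays, 72 passed as higher, and the median change was 0.87 (range 0.25 to 2.40). Of all probe sets, 28.3% did not overlap in either direction and 2.88% passed as higher. The 77 probe sets read 1 gene and are not separate results. These make 7.07% of the probe sets called higher, and 946 remain without them. In KO cells 64 passed, with a median change of 0.93. Their median level was 5.30 to 5.44 on the CD27 arrays, 5.54 to 5.83 on the DP arrays and 6.18 to 6.45 on the CD11b arrays. These levels lie below or near the median probe set of 6.33.

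Of 291 microRNA genes 3 fell and 0 rose, beside 2.48% of all genes lower and 3.72% higher: Mir342 from 9.12 ± 0.40 to 8.16 ± 0.34, Mir568 from 9.11 ± 0.05 to 8.62 ± 0.15 and Mir150 from 5.45 ± 0.05 to 5.18 ± 0.08. These probe sets read precursor or host transcripts, not the mature microRNA. The mature strands of Mir342, the largest fall of the 3, are given from RefSeq (GRCm38.p6) with the seed, bases 2 to 8, in capitals.
mmu-miR-342-5p: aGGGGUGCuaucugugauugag
mmu-miR-342-3p: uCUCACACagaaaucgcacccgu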
